A study of Pyrus pyrifolia with 2 samples.

Results

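Intergenic assembled loci are transcribed places in the pear genome that were put together from sequencing reads and lie outside every annotated gene. A locus was counted here when none of its transcripts had a name with the prefix Pbr, which marks annotated genes, and when its span, introns included, overlapped no annotated transcript on either strand. Of the 45905 loci in the transcript tables, 4106 held no annotated transcript, and 3094 of these (75.4%, or 6.74% of all loci) met the rule. They were described in 2 classes: 1321 loci with 2 or more exons, and 1773 loci with 1 exon. The remaining 1012 assembled loci overlapped an annotated gene, and 41799 loci held an annotated transcript.

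Transcripts outside annotated genes arise from several sources. Some are protein-coding genes that the annotation lacks, some are long noncoding RNAs, some come from transposable elements, and some are untranslated ends of known genes or fragments of genes that the assembly did not join. Splicing separates these in part: introns give a locus a strand and are seldom made by stray genomic DNA, whereas a locus with 1 exon can be any of them, and in plants long noncoding RNAs have been described among transcripts that respond to microbes.

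RNA came from wounded fruit of Pyrus pyrifolia, the sand pear, of the cultivar Shuijing, and the study asked how the fruit responds to a yeast. Wounds were treated with 30 μL of sterilized water or with 30 μL of suspended Wickerhamomyces anomalus, which is of interest against fruit rot. Fruit of both groups was held at 28 °C and 95% relative humidity, and the treatment lasted 3 days. Each group had 1 library, called the water library and the yeast library below, so no difference has a replicate check, no test was possible, and every ratio compares these 2 libraries. In such bulk tissue, fewer cells of a type and less RNA per cell cannot be told apart. No file used here gives products for the identifiers, so the tissue was not checked against marker genes, no role is given to any locus, and no sequence was read.

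About 19367039 read pairs stood behind the water library and 16753518 behind the yeast library, as estimated from coverage. Intergenic loci held 533105 of the read pairs assigned to loci in the water library (2.93%) and 478094 in the yeast library (3.03%). Spliced loci accounted for 2.15% and 2.25%, and loci with 1 exon for 0.775% and 0.787%. The reads were concentrated on few loci: the 10 deepest took 26.3% of the intergenic read pairs in the water library and 27.5% in the yeast library.

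The spliced loci were shorter than annotated loci. Of the 1321, 583 had 2 exons, 520 had 3 to 5 and 218 had 6 or more, with a highest number of 19. Their median exonic length was 787 bases (range 200 to 6517). It was 1041 bases for all loci holding an annotated transcript and 1221 for those with 2 or more exons. In loci with 1 transcript, the mean intron had a median of 340.8 bases, against 287 bases in annotated loci. By exon number, these medians were 287 and 290 bases with 2 exons, 399 and 334 with 3 to 5, and 257.5 and 252 with 6 or more. No locus of either intergenic class was shorter than 200 bases. All spliced loci had a strand, 696 on the plus and 625 on the minus strand.

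The loci with the most exons read nearly the same in both libraries. One with 19 exons over 9276 bases of chromosome 8 (3567795 to 3577070, plus strand), 3 bases from an annotated gene, read 16.6 FPKM (fragments relative to transcript length and library size) under water and 16.3 under yeast, 1.02-fold lower (95% counting interval 0.908 to 1.14). Another with 19 exons on scaffold721.0 (78433 to 84561, minus strand), 3933 bases from a gene, read 15.4 and 15.9 FPKM. The widest span, 83117 bases of chromosome 6 (8185961 to 8269077, plus strand), belonged to a locus with only 2 exons and 827 exonic bases, at 6.45 and 6.08 FPKM.

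Every annotated transcript in the tables had a length that is a multiple of 3 (100% of 42341), so annotated genes are given by their coding parts, and each distance runs to the end of a coding model. Among transcripts of the spliced intergenic loci 33.6% had such a length, and among those of loci with 1 exon 34.9%. Annotation of the untranslated ends was thus not used here, and how many intergenic loci are such ends was not tested.

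Loci with 1 exon were shorter and mostly without a strand. Their median length was 451 bases (range 200 to 10030), and 416 of them (23.5%) were under 300 bases, the length that a read pair covers, against 119 (9.01%) of the spliced loci. A strand was given for 669 of the 1773, 323 plus and 346 minus, and 1104 (62.3%) had none. The longest, 10030 bases on scaffold119.0 (370309 to 380338, minus strand), read 1.59 FPKM under water and 1.38 under yeast and overlaps another locus. The next, 6239 bases on chromosome 2 (21688677 to 21694915, plus strand), overlaps none and read 6.84 and 9.98 FPKM, 1.46-fold higher under yeast (1.33 to 1.60).

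A group of 513 loci with 1 exon carried the name of an annotated gene in the transcript tables although no annotated transcript belonged to them. All 513 lay on the 3′ side of the gene they were named for, at most 1995 bases from it (median 747). None was on the opposite strand, 224 were on the same strand and 289 had no strand. For 426 of them the gene was also the nearest one. Over all 513, the locus was above its gene in both libraries in 183, and in 83 the gene was listed at 0 in both. Where both were measured (279 pairs), the locus reached a median of 0.320 of the gene's FPKM in the water library and 0.301 in the yeast library. Across these 279 pairs, the log2 ratios of locus and gene had a Spearman rho of 0.12. No spliced locus carried a gene name.

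**Figure D1:**
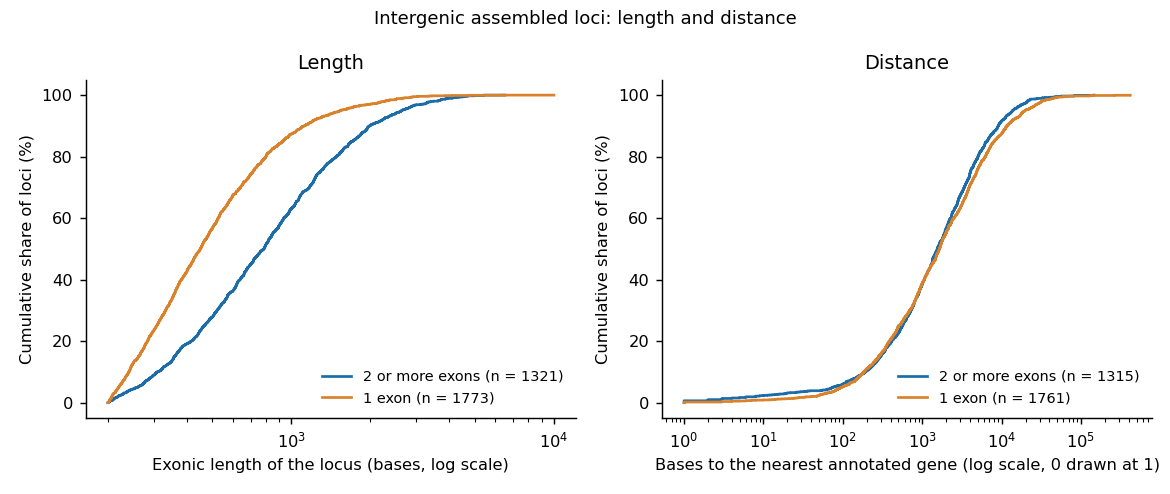
Cumulative share of intergenic loci by exonic length (left) and by distance to the nearest annotated gene (right), both on log axes, for loci with 2 or more exons (blue) and with 1 exon (orange). Spliced loci are longer (medians of 787 and 451 bases), whereas the distance curves lie close together (medians of 1547 and 1645 bases).

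Distances to the nearest annotated gene were alike in both classes. The median was 1547 bases for spliced loci and 1645 for loci with 1 exon, and 38.6% and 38.8% lay within 1 kb. More than 5 kb from any annotated gene were 269 spliced loci (20.5%) and 423 loci with 1 exon (24.0%). The spliced locus farthest from an annotated gene lay 146015 bases away, and the farthest locus with 1 exon 415600 bases away. A distance could not be given for 18 loci on sequences that hold no annotated gene. At the edge of the rule, 9 loci began directly beside an annotated transcript and 170 lay within 100 bases of one, while 101 assembled loci were left out for an overlap of at most 100 bases, 38 of them for an overlap of exactly 4 bases.

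Near genes, spliced loci most often faced the gene tail to tail. Of the 508 within 1 kb, 251 (49.4%) were convergent, on the opposite strand and past the gene's 3′ end, and these had a median mean FPKM of 7.51. Another 116 lay upstream of a gene on the same strand, 74 downstream on the same strand, and 67 were divergent. Over 1 kb from the gene, 24.2% were convergent. The same pattern held between annotated genes: among measured annotated loci with 2 or more exons, 58.3% of those within 1 kb of their nearest annotated neighbour were convergent with it, and 27.3% of those farther away.

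The loci were spread over the whole assembly. The 17 chromosomes held 2430 of them, with 5.77 to 8.75 per 100 annotated loci, the fewest on chromosome 14 and the most on chromosome 11. The other 664 lay on 330 unplaced scaffolds, where the figure was 9.25 per 100 annotated loci. Between annotated neighbours, 2405 stretches held 2929 of the loci. Of these stretches, 2018 held 1 locus, 297 held 2, and 90 held 3 or more.

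Intergenic loci had low FPKM, though not lower than the median annotated locus. FPKM had a median of 3.37 in the water library and 3.51 in the yeast library for spliced loci, and of 1.54 and 1.62 for loci with 1 exon. The median of annotated loci was 0.543 and 0.533, with 14714 of 41799 listed at 0 in both libraries. A mean of at least 5 FPKM was reached by 38.5% of spliced loci, 16.9% of loci with 1 exon and 31.7% of annotated loci. Among annotated loci it was 38.6% with 2 or more exons, almost the share of the spliced intergenic loci, and 13.4% with 1 exon. These shares include the annotated loci listed at 0. Of loci with a mean of at least 1 FPKM, 509 of 1267 spliced intergenic loci reached 5 FPKM. It was 11760 of 16591 for annotated loci with 2 or more exons. With 1 exon, 299 of 1426 intergenic and 1510 of 2713 annotated loci did. At that floor, intergenic loci were thus lower. Loci below 1 FPKM are nearly absent: 1320 of 1321 spliced loci and 1749 of 1773 loci with 1 exon reached 1 FPKM in the higher library, against 47.4% of annotated loci. A share of 53.6% of the loci with 1 exon lay between 1 and 2 FPKM in their higher library. A locus of that kind that is low in the other library had to differ, so no count over such loci supports a response.

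A mean of at least 100 FPKM was reached by 35 spliced loci and 11 loci with 1 exon. The most abundant, on the plus strand of chromosome 1 from 9288251 to 9309281, read 7488 FPKM in the water library and 8543 in the yeast library, the 5th highest mean of all 45905 loci. Its 2 exons sum to 294 bases and enclose an intron of 20737 bases. It lies inside the span of a locus on the minus strand that reads 8362 and 8864 FPKM and holds an annotated transcript elsewhere in that span. How the reads were divided between these loci was not tested.

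Of the next most abundant spliced loci, those given here overlapped no other locus. One with 2 exons on chromosome 6 (5628659 to 5630789, minus strand), 134 bases from an annotated gene, read 769 and 796 FPKM. One with 3 exons on chromosome 3 (3286494 to 3288045, plus strand) read 593 FPKM in the water library and 501 in the yeast library, 1.18-fold lower (95% counting interval 1.15 to 1.22). One with 6 exons on chromosome 6 (18151505 to 18154745, minus strand), 3299 bases from an annotated gene, read 486 and 501 FPKM. Such intervals hold counting error alone, not the variation from fruit to fruit.

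Among loci with 1 exon, the most abundant was on the plus strand of chromosome 16 (7420417 to 7421218) with 1766 and 1852 FPKM, the 23rd highest mean of all loci. Another on chromosome 16 (9761174 to 9761635), without a strand, read 750 and 711 FPKM. The abundant locus with the largest ratio lay on the minus strand of chromosome 6 (18382882 to 18383283), with 599 FPKM under water and 864 under yeast, 1.44-fold higher (1.39 to 1.50). It overlaps 4 other loci, among them a locus on the opposite strand that holds an annotated transcript and read 199 and 276 FPKM, so both strands were higher in the yeast library there.

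**Figure D2:**
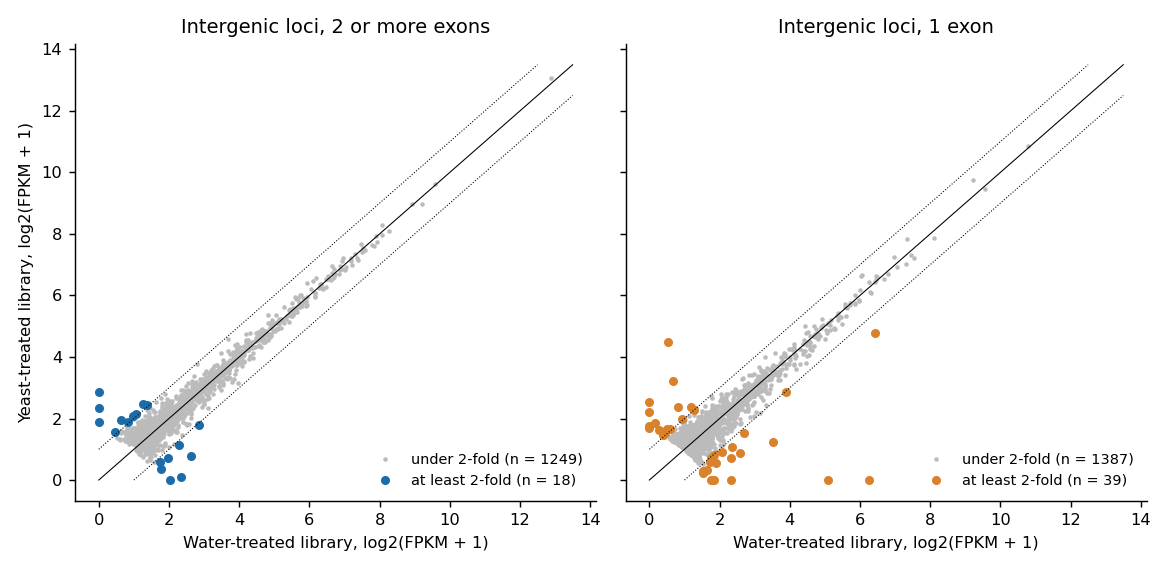
Level of each measured intergenic locus in the water (x axis) and the yeast library (y axis), as log2(FPKM + 1), for loci with 2 or more exons (left) and with 1 exon (right). The solid line marks equality and the dotted lines a 2-fold difference; the 18 spliced loci past it all lie at low levels, whereas some of the 39 loci with 1 exon past it lie at high levels.

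The yeast and the water library differed little at spliced intergenic loci. Ratios were taken as log2 of (yeast FPKM + 1) over (water FPKM + 1), a scale that understates the change of low loci, and a locus was measured at a mean of at least 1 FPKM. Of 1267 measured spliced loci, 10 passed 2-fold toward yeast and 8 toward water. Together these are 1.42%, while 0.829% of all 22928 measured loci passed 2-fold (0.427% toward yeast and 0.401% toward water), and 0.508% of the measured annotated loci. None of the 509 spliced loci with a mean of at least 5 FPKM passed it. Of all 14501 loci at that level 0.324% did, so this count is not a result about spliced loci. Where both libraries held 20 or more read pairs, 2 of 945 did (0.212%), against 0.265% of all loci of that depth. That filter also asks for reads in the lower library, so it leaves out strong changes at modest depth. Counting intervals lay wholly beyond 2-fold at 4 of the 10 loci toward yeast and 3 of the 8 toward water. Over all measured loci, this held for 50 of 98 and 50 of 92.

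The ratios of spliced loci were shifted slightly upward at low levels. Their median log2 ratio was 0.061, against 0.0052 for all measured loci, and 58.9% were above 0, against 51.1%. The median was 0.076 for the 758 loci at 1 to 5 FPKM and 0.064 for the 338 at 5 to 20, but 0.00088 for the 136 at 20 to 100 and -0.045 for the 35 at 100 or more. Annotated loci went from 0.018 at 1 to 5 FPKM to -0.021 at 100 or more. With 6 or more exons, 66.1% of 218 loci were above 0 (median 0.063), and with 10 or more exons 73.8% of 61 (median 0.070). Annotated loci with 10 or more exons also leaned upward, with 63.0% above 0 and a median of 0.041, whereas those with 2 exons had 41.7% above 0 and a median of -0.046.

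Of the spliced loci with enough reads in both libraries, 1 was past 2-fold higher and 1 past 2-fold lower. The first, with 3 exons on scaffold395.2 (11126 to 12176, plus strand), read 1.41 FPKM in the water library and 4.58 in the yeast library, 3.24-fold higher (2.00 to 5.51). A locus with 4 exons on chromosome 9 (15810533 to 15811485, minus strand) read 5.93 and 12.8 FPKM, a plain ratio of 2.15 (1.59 to 2.98) and a log2 ratio of 0.99. The second, with 2 exons on scaffold522.0.1 (11003 to 11664, minus strand), read 6.30 and 2.44 FPKM, 2.58-fold lower (1.51 to 4.34).

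A value of 0 in the water library alone was listed for 7 spliced loci, and in the yeast library alone for 6. No fold is given for them. MSTRG.7909, with 6 exons on the minus strand of chromosome 15 (11873102 to 11875815), stood at 0 under water and at 6.25 FPKM under yeast, on an estimated 112 read pairs. It overlaps no other locus and lies 6849 bases from an annotated gene that read 1.81 and 2.24 FPKM. Another, with 4 exons on chromosome 15 (32396400 to 32397334, plus strand), read 3.10 FPKM in the water library and was listed at 0 in the other. A count of 3 read pairs, which a listed 0 still allows, equals 0.197 FPKM (water) and 0.228 FPKM (yeast) at the median length of a spliced locus.

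A larger share of the loci with 1 exon than of the spliced loci passed 2-fold, mostly with few reads in the lower library. Of 1426 measured, 18 passed 2-fold toward yeast and 21 toward water. Together these are 2.73%, against 0.829% of all measured loci. In 34 of these 39, the lower library held fewer than 20 read pairs, and in 9 it was listed at 0. A large change also lowers that count. Counting intervals lay wholly beyond 2-fold at 11 of the 18 and 8 of the 21, against 50 of 98 and 50 of 92 over all measured loci. Where both held 20 or more read pairs, 5 of 620 passed (0.806%, against 0.265% of all loci of that depth). Some of these 5 overlap a locus on the opposite strand, and the summed ratios of those overlaps, given below, are closer to equality. The median log2 ratio was 0.028 and 53.9% of ratios were above 0.

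**Figure D3:**
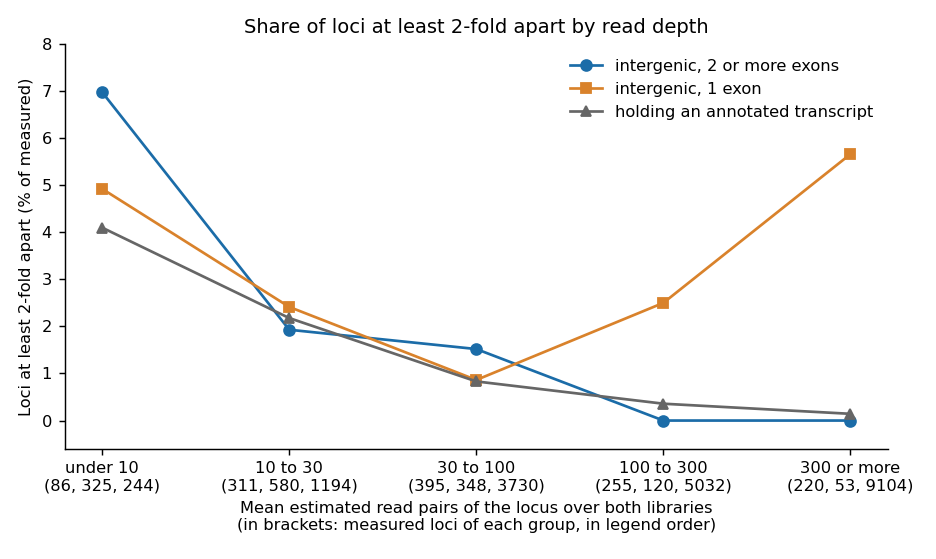
Share of measured loci at least 2-fold apart between the libraries (y axis, %) by the mean number of estimated read pairs of the locus (x axis), for spliced intergenic loci, intergenic loci with 1 exon and loci holding an annotated transcript. The share falls with depth in spliced and annotated loci, from 6.98% and 4.10% under 10 read pairs to 0% and 0.143% at 300 or more, while for loci with 1 exon it is 0.862% at 30 to 100 and 5.66% (3 of 53 loci) at 300 or more.

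The highest ratio of yeast over water among intergenic loci above 0 in both libraries was at MSTRG.17647, with 1 exon and no strand on chromosome 6 (17693341 to 17694146), a locus outside the naming rule and chosen after its value was seen. It read 0.438 FPKM in the water library, on 6.83 read pairs, and 21.4 FPKM in the yeast library, on 289 read pairs. The yeast library was thus 48.9-fold higher (22.9 to 120). The locus overlaps no other and lies 508 bases from the 5′ side of an annotated gene that read 0.747 and 0.710 FPKM. A second locus chosen after its value was seen, on chromosome 12 (5836258 to 5836843, no strand), read 0.591 and 8.40 FPKM, 14.2-fold higher (6.28 to 34.7), beside an annotated gene at 31.9 and 28.7 FPKM.

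Among intergenic loci with 20 or more read pairs in both libraries, the lowest ratio was at MSTRG.4423, a long locus with 1 exon and no strand on chromosome 12 (13277000 to 13279739). It read 4.99 FPKM in the water library, on 265 read pairs, and 0.822 in the yeast library, on 37.7. It was 6.07-fold lower (4.28 to 8.71), overlaps no other locus, and lies 12779 bases from the nearest annotated gene. On scaffold1159.0 (583 to 1271, no strand), a locus read 5.42 and 1.88 FPKM, 2.88-fold lower (1.74 to 4.79). The lowest ratios of all intergenic loci, at overlapping loci described below, had 778 and 461 read pairs under water and 0 under yeast. The lower ratios given next rested on fewer reads. A locus with 6 exons on scaffold1155.0 (29219 to 32098, minus strand), chosen after its value was seen, read 4.09 and 0.059 FPKM on 41.4 and 0.516 read pairs, 69.4-fold lower with an interval from 6.02 to 1435. One with 1 exon on chromosome 14 (14887379 to 14887600, plus strand), chosen in the same way, read 10.5 and 1.34 FPKM on 45.1 and 4.97 read pairs, 7.85-fold lower (3.10 to 25.1).

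The annotated genes nearest to changed loci were mostly too low to compare. Of the loci past 2-fold that overlapped no other locus and had at least 30 read pairs in the higher library, 14 had a nearest annotated gene. Only 6 of these 14 genes were measured, and 3 were listed at 0 in both libraries. None of the 6 passed 2-fold, where 0.508% of all measured annotated loci do, so the count is not a result about these genes. Over all loci with 1 exon, the log2 ratios of locus and gene had a Spearman rho of 0.16 (n = 800 pairs with both measured). The highest rho of any arrangement over all distances was 0.46, for those upstream of a gene on the same strand (n = 144). Those downstream on the same strand had 0.16 (n = 137). Loci with 1 exon and no strand had 0.10 on the 5′ side (n = 228) and 0.01 on the 3′ side (n = 194). For spliced loci upstream on the same strand it was 0.25 (n = 192). These correlations are across loci of the same libraries, which are not independent replicates.

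**Figure D4:**
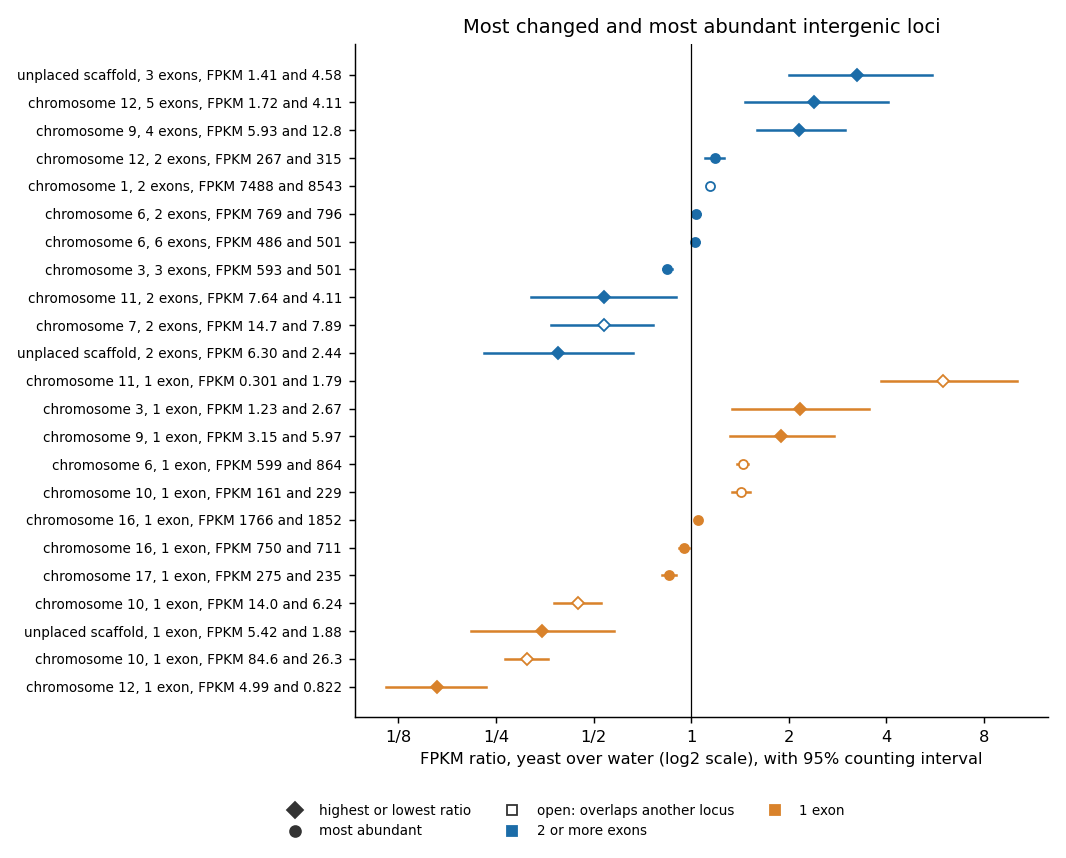
FPKM ratio of yeast over water (x axis, log2 scale) with its 95% counting interval for the intergenic loci with the highest and lowest ratios among those with 20 or more read pairs in both (diamonds) and for the most abundant ones (circles). Labels on the y axis give the chromosome, the exons and the FPKM in the water and the yeast library. Open symbols overlap another locus, and the abundant loci lie between 0.845 and 1.44.

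Several of the largest differences sat where loci overlap on opposite strands. An overlap with the span of any other locus was found for 219 spliced loci and 124 loci with 1 exon, 164 of these 343 with an assembled extension of a locus that holds an annotated transcript. Of the 91 measured loci with 1 exon that overlapped another, 12 passed 2-fold (13.2%), against 27 of the 1335 that did not (2.02%). The 3 loci with 1 exon past 2-fold at 300 or more read pairs were all among the overlapping ones, and none of the 39 loci of that depth without an overlap passed it. Among spliced loci the shares were 1.45% of 207 and 1.42% of 1060. Of all 2666 measured loci that overlapped another, 35 passed 2-fold toward yeast and 30 toward water. Of all 20262 that did not, 0.617% passed it.

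The overlaps below were chosen for a locus past 2-fold, so their sums move less by that choice and are given as a description. On chromosome 10, from 17358961 to 17359492, a pair of loci shares one span. MSTRG.1901, on the plus strand, read 75.5 FPKM under water and stood at 0 under yeast. The locus on the minus strand read 161 and 229 FPKM. Together they held 2439 and 2042 read pairs, a log2 ratio of -0.05 after scaling to library size. The plus strand thus had 31.9% of the read pairs of that span in the water library and 0% in the other.

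Strand shares also moved at other pairs. On chromosome 9, from 1509617 to 1510335, the plus strand had 33.3% of 1383 read pairs in the water library and 0% of 1197 in the yeast library, and the summed log2 ratio was 0.00. On chromosome 10, from 16965265 to 16965754, the locus on the plus strand read 84.6 and 26.3 FPKM, 3.21-fold lower (2.76 to 3.75), while the one on the minus strand read 64.9 and 98.5 FPKM. Their summed log2 ratio was -0.26.

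Shifts of this kind also occurred between a spliced locus and a locus with 1 exon. On chromosome 10, from 23723758 to 23725829, the spliced locus on the plus strand held 39.6% of the read pairs in the water library and 73.9% in the yeast library, at a summed log2 ratio of 0.05. On chromosome 11, from 7895828 to 7899710, the locus on the minus strand went from 0.301 to 1.79 FPKM, 5.96-fold (3.84 to 10.1), while its share of the pair went from 8.98% to 49.4% and the sum had a log2 ratio of 0.11. Over the 211 opposite-strand overlaps with both loci measured, the signs of the log2 ratios differed in 95 (45.0%). Not every sum was near equality. Over all overlaps that were summed, the summed log2 ratios ran from -1.06 to 1.69, and 4 were past 2-fold. Whether the libraries keep the strand of the RNA is stated in none of the sources used here, and the part that the assignment of reads to strands plays in these ratios was not tested.

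**Figure D5:**
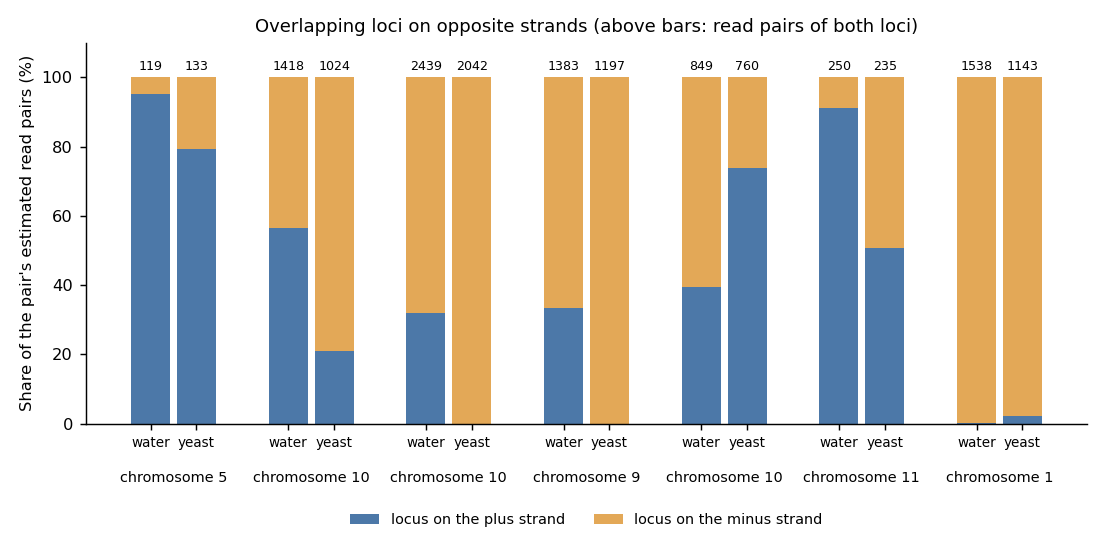
Share of estimated read pairs (y axis, %) on the plus (blue) and the minus strand (yellow) in the water and the yeast library, for the 7 opposite-strand overlaps of intergenic loci with 100 or more read pairs in both libraries and a locus past 2-fold. Numbers above the bars are the read pairs of both loci; the summed log2 ratios lie between -0.26 and 0.36.

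The stretch between annotated neighbours that held the most loci, chosen after its values were seen, was on chromosome 7 from 8204664 to 8263751. It held 9 loci, 1 spliced and 8 with 1 exon, of which 1 was past 2-fold higher and 3 past 2-fold lower in the yeast library. The spliced one, on the minus strand from 8205823 to 8215990, read 14.7 and 7.89 FPKM, 1.86-fold lower (1.32 to 2.71), and overlaps 3 others. The 3 past 2-fold lower had at most 20.5 read pairs in the water library. The locus past 2-fold higher is the minus-strand member of a pair with one span from 8246334 to 8247106. It read 0.122 and 2.60 FPKM, on 1.82 and 33.7 read pairs. Its plus-strand partner read 2.33 and 2.62 FPKM, on 34.8 and 34.0 read pairs, and so did not fall in FPKM as the other rose. On the minus strand of the same stretch and with more reads, one locus (8215177 to 8215628) read 19.7 and 16.0 FPKM and another (8227328 to 8229056) read 8.03 and 7.04 FPKM, ratios whose intervals hold 1.

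Of the spliced loci, 210 had 2 or more transcripts, up to 8. In 209 of them, all with reads in both libraries, the share of the transcript that moved most between the libraries moved by a median of 12.4 percentage points. The leading transcript differed between the libraries in 68 (32.5%), and 7 (3.35%) moved by at least 50 points. Of 8466 annotated loci with 2 or more transcripts, the leading one differed in 8.94%, the median move was 1.66 points and 2.70% moved by at least 50 points. At 300 or more read pairs, the leading transcript differed in 28.6% of 49 intergenic and 8.07% of 4823 annotated loci. The largest move, chosen after its value was seen, was at a locus with 2 transcripts on chromosome 7 (1795510 to 1796772, plus strand), where one transcript made up 98.4% of the locus in the water library and 25.5% in the yeast library on 45.6 and 46.6 read pairs. The locus as a whole read 2.01 and 2.37 FPKM.

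Among the spliced loci, 5 pairs, looked for after the data were seen, had the same exon number, exonic length and span as each other, in each case on opposite strands of separate places. On scaffold1514.0, an example chosen after its values were seen, loci with 3 exons and 612 exonic bases lay from 1 to 1396 (minus strand) and from 32706 to 34101 (plus strand). The first read 12.8 and 8.07 FPKM and the second 13.4 and 15.1 FPKM. On chromosome 12, another chosen in the same way, such a pair with 681 exonic bases lay from 2728333 to 2729511 and from 2895456 to 2896634, each 3949 bases from an annotated gene. It read 2.23 and 1.80 FPKM at the first and 1.47 and 3.24 FPKM at the second. Whether the members of a pair are alike in sequence was not tested, and reads of like copies can be split between them, so these values are uncertain.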

How the data were processed

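Wound tissue of pear was sequenced, 1 library each for sterilized water and for Wickerhamomyces anomalus, per the labels. The authors deposited FPKM per gene and, per the file headers, FPKM, the mean coverage per base, position, strand, exon number and length per transcript. Per the submitters' processing notes, HISAT2 and HTSeq 0.6.1 were among the tools, with no step named. For the genome build, the annotation and the program behind the transcript tables, the sources used here give nothing. Coordinates are 1-based, as in the deposited tables.

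Transcripts were grouped by locus with Python 3.11.15, pandas 2.3.3, numpy 2.4.6 and SciPy 1.17.1. The value of an intergenic locus is its row in the deposited gene table. Its 3094 loci all have a row; 3087 rows matched the transcript table, by a length equal in both libraries within 0.1%, and 7 are 0 in both. For the background, 161 loci took values from transcript FPKM. Read pairs were estimated as the deposited coverage times length over 300, because 300 covered bases were the most frequent value at low transcripts in both libraries. Ratios are log2((yeast FPKM + 1)/(water FPKM + 1)) with a mean FPKM of at least 1; past 2-fold means 1 or more, or -1 or less, on that scale. Folds with an interval are plain FPKM ratios with exact Clopper-Pearson 95% intervals conditional on the sum of rounded read pairs. Read pairs are not independent molecules, so intervals cover counting error only.

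With 1 library per treatment there was no test and no p-value. Counts and medians stand beside those over all loci. Named loci were, per class, those with the highest and lowest ratios at 20 or more read pairs in each library, the most abundant, the longest, the farthest from a gene, those with the most exons and those listed at 0 with the most reads; the text marks others as chosen after their values were seen. The loci and these rules were chosen with earlier results of these data known. The functions were tested on simulated read pairs.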

Additional observations from a re-analysis of the deposited data

How the results depend on the processing

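No paired analysis was possible because there is 1 library per group, and for the same reason no library could be left out. The 18 spliced loci past 2-fold became 73 with a pseudocount of 0.1, 1 with a pseudocount of 5, 31 without a filter, 0 at a mean of 5 FPKM, 34 in TPM, 2 with 20 read pairs in each library, 5 at 5 kb or more from a gene and 4 at 4-fold. The 39 loci with 1 exon became, in the same order, 126, 6, 108, 6, 77, 5, 16 and 8, and 15 with a strand only. Shares of spliced loci, loci with 1 exon and all loci were 5.76%, 8.84% and 2.40% with a pseudocount of 0.1. They were 0.0789%, 0.421% and 0.157% with a pseudocount of 5. Without a filter they were 2.35%, 6.12% and 1.08%, and at a mean of 5 FPKM 0%, 2.01% and 0.324%. In TPM they were 2.60%, 4.67% and 1.29%, and at 4-fold 0.316%, 0.561% and 0.183%. Spliced loci were below all loci with a pseudocount of 5, at 5 FPKM and with 20 read pairs. The median log2 ratio of spliced loci was 0.034 with a pseudocount of 5, 0.079 in TPM, 0.090 at 1 kb or more and 0.10 at 5 kb or more from a gene. That of loci with 1 exon turned to -0.038 at a mean of 5 FPKM and was 0.058 in TPM. Of 2 alternatives chosen after seeing the data, leaving out loci that overlap another locus gave 15 and 27, and keeping loci above 0 in both libraries gave 14 and 30. Of 210 recomputed ratios of named loci, none changed sign past 2-fold, and 33 left the 95% counting interval taken on the scale of the main value: 10 with a pseudocount of 0.1, 14 with a pseudocount of 5, 8 in TPM (loci listed at 0 in a library) and 1 with summed transcript FPKM. At the median length of a locus with 1 exon, 3 read pairs equal 0.343 FPKM (water) and 0.397 FPKM (yeast), and lower levels are not resolved.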
